A study of Mus musculus with 2 samples.

Results

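The Trim genes encode the tripartite motif proteins, most of which are ubiquitin ligases with a RING finger, B-box zinc fingers and a coiled coil. The members were all protein-coding genes of the table whose GENCODE M21 symbol is Trim followed by a digit, and 68 of 21903 protein-coding genes met this rule. The pseudogene Trim30e-ps1 was left out by it. The RNA came from small peritoneal macrophages, the monocyte-related macrophages of the abdominal cavity. They were sorted from male SWISS mice, which are outbred, at an age of 5 weeks. In the LPS+LCC-12 group, 8 mice received 20 mg/kg lipopolysaccharide (LPS) of Escherichia coli O55:B5 into the peritoneum and 0.3 mg/kg LCC-12, a compound known to bind copper in mitochondria, by the same route 6 h later. In the LPS group, 7 mice received LPS alone. Both groups also received saline subcutaneously (30 mL/kg, at 6 h) and were killed at 22 h, so LPS endotoxemia was common to them. Cells were pooled within each group, 66967 cells for LPS+LCC-12 and 102283 for LPS, and each pool gave 1 library. Mice without LPS were not analysed here.

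Each group being 1 library, nothing could be tested. Every difference is between these libraries, and the intervals given are exact 95% binomial intervals that cover counting error only. The gene counts summed to 47721888 in the LPS+LCC-12 library and 50618409 in the LPS library. Counts were scaled with TMM, the log2 ratio is LPS+LCC-12 over LPS, and genes are called higher or lower from a 2-fold ratio upward, provided that the larger of the 2 counts reached 50. Of all protein-coding genes that reached 50 counts, 4.46% were lower and 3.81% higher. In bulk RNA, fewer cells of a type and less RNA per cell cannot be told apart. The macrophage markers were abundant in both libraries, with 39897 and 41890 counts of Adgre1, which encodes F4/80, with LPS+LCC-12 and LPS. All 9 macrophage markers were within 2-fold. Neutrophil markers were also present, at a summed 3514 CPM (TMM-scaled counts-per-million) with LPS+LCC-12 and 9299 with LPS, and 8 of the 11 that could be read were lower. Markers of small peritoneal macrophages summed to 1440 CPM with LPS+LCC-12 and 842 with LPS, with 7 of 9 higher. Those of large peritoneal macrophages summed to 787 with LPS+LCC-12 and 245 with LPS, with 6 of 8 higher. Of 7 monocyte markers 5 were lower and 1, Fn1, higher, and the list summed to 12871 CPM with LPS+LCC-12 and 7130 with LPS. B cell markers summed to 198 CPM with LPS+LCC-12 and 171 with LPS, and mast cell markers, 5 of 6 lower, to 67.7 with LPS+LCC-12 and 213 with LPS. Mesothelial markers summed to 1.32 CPM with LPS+LCC-12 and 7.65 with LPS, and all 4 that reached 50 counts were lower, with a median log2 ratio of -3.40. Fibroblast markers summed to 3.64 CPM with LPS+LCC-12 and 12.4 with LPS, with 3 of 4 lower and a median of -2.39. Lists for dendritic, T and NK cells summed to at most 8.43 CPM in either library. The median log2 ratio was below 0 for the chromosome 7 Trim genes. It was also below 0 for the neutrophil, monocyte, mast, mesothelial, fibroblast, dendritic, T and NK cell lists, and for the macrophage list, at -0.02. For the small and large peritoneal macrophage and B cell lists it was above 0. The medians for dendritic, T and NK cells rest on 3, 2 and 1 genes. The part of these cells in the differences among Trim genes was not tested.

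Most tripartite motif proteins attach ubiquitin to their targets, and many of the family act in the response of macrophages to infection. Some bind viral capsids, some modify the sensors of viral RNA and DNA, and some set the strength of signalling to NF-kB and to the interferon genes. Part of the family is itself induced by interferon, whereas other members work on chromatin, microtubules or membranes.

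Genes of the family were counted at 86020 reads with LPS+LCC-12 and 120340 with LPS. As a share of the unscaled library totals that was 1803 CPM with LPS+LCC-12 (1791 to 1815) and 2377 with LPS (2364 to 2391). Of the 68 members, 41 reached 50 counts in at least 1 library, and 27 did not. Among these 41, 6 were lower with LPS+LCC-12, which is 14.6%, against 4.46% of all protein-coding genes past the same minimum. Another 3, or 7.32%, were higher, against 3.81%. Either way it was 9 of 41, against 8.27%, and 32 were within 2-fold. Ratios below 0 were found for 25 of 41, against 44.3%. The median log2 ratio was -0.17 over the 41 Trim genes and 0.05 over the 11220 protein-coding genes. All 6 lower genes lay in 1 cluster on chromosome 7. The 32 members outside that group of relatives had a median of -0.0037, with 3 higher and 0 lower.

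**Figure D1:**
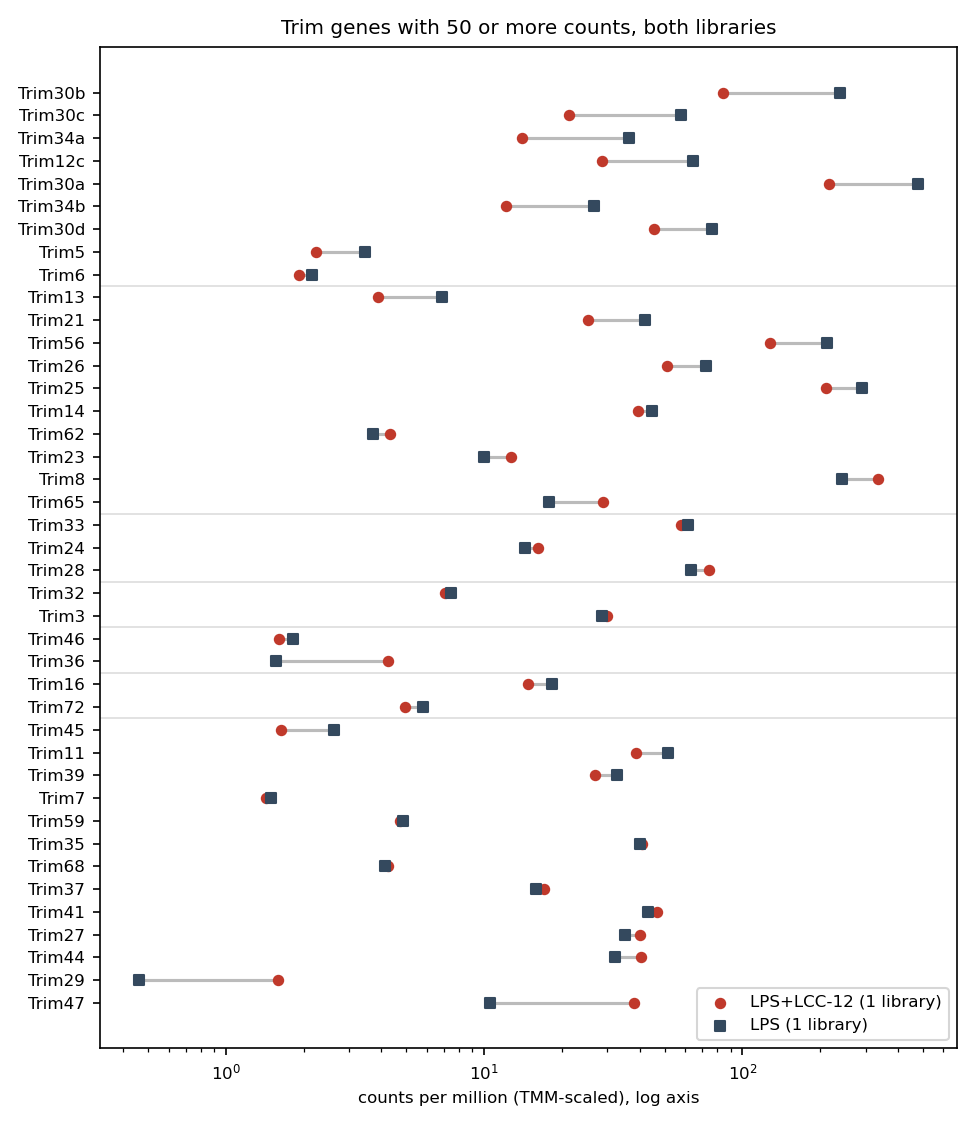
TMM-scaled CPM (log axis) of the 41 Trim genes with 50 or more counts, with 1 point for each library, LPS+LCC-12 as circles and LPS as squares, ordered by role and then by log2 ratio. The widest gaps are those of the first 6 genes, lower with LPS+LCC-12, and of Trim36, Trim29 and Trim47, higher with LPS+LCC-12.

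The relatives of Trim5, the gene whose human form blocks retroviral capsids, form a cluster of 10 genes on chromosome 7, from Trim6 at 104218793 to Trim30d at 104507849 (GRCm38). Of the 9 that reached 50 counts, all had log2 ratios below 0, and 6 were at least 2-fold lower. The median was -1.15. Together the 10 genes had 20644 counts with LPS+LCC-12 and 49181 with LPS, 2.31-fold lower (log2 ratio -1.21, -1.23 to -1.18). They made up 24.0% of all Trim counts with LPS+LCC-12 and 40.9% with LPS.

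The Trim30 genes are a rodent branch of this cluster. Trim30a, which in mouse promotes loss of the TAB2 and TAB3 adaptors and so restrains Toll-like receptor signalling, had 10464 counts with LPS+LCC-12 and 23896 with LPS. It was 2.21-fold lower (log2 ratio -1.15, -1.18 to -1.11). Trim30b had 4085 counts with LPS+LCC-12 and 11939 with LPS, 2.83-fold lower (log2 ratio -1.50, -1.55 to -1.45). Trim30b had the lowest ratio of the 41 members. Trim30c had 1035 counts with LPS+LCC-12 and 2901 with LPS, a log2 ratio of -1.44 (-1.54 to -1.34). Trim30d, the neighbour of Trim30a, had 2206 counts with LPS+LCC-12 and 3816 with LPS, a log2 ratio of -0.74 (-0.82 to -0.67). The interval of Trim30d did not reach those of the other Trim30 genes, and that of Trim30a did not reach those of Trim30b and Trim30c. Between these libraries the ratios within the branch thus differed by more than counting error, the only spread that the intervals cover. Annotated transcripts of Trim30b and Trim30c shared no stretch of 100 bases with transcripts of any other gene. For Trim30a 4.41% of such stretches were shared, and for Trim30d 4.57%, all of them between these 2 genes.

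The Trim34 pair, relatives of a human protein that acts on retroviral capsids together with TRIM5, was also lower. Trim34a had 676 counts with LPS+LCC-12 and 1815 with LPS, a log2 ratio of -1.38 (-1.51 to -1.25). Trim34b had 586 counts with LPS+LCC-12 and 1326 with LPS, a log2 ratio of -1.13 (-1.27 to -0.99). The split of reads between them is uncertain, because 21.0% of the 100-base stretches of Trim34a and 30.5% of those of Trim34b occur in both. Their sum does not depend on that split, although reads left uncounted as ambiguous would be missing from it. It was 1262 with LPS+LCC-12 and 3141 with LPS, 2.41-fold lower (log2 ratio -1.27, -1.36 to -1.17). Part of Trim34a, 23.5% of its exon bases, also lies opposite the antisense gene Gm47248, which had 13 counts with LPS+LCC-12 and 21 with LPS.

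Trim12c, known in mouse to promote signalling through TRAF6, had 1387 counts with LPS+LCC-12 and 3208 with LPS, 2.24-fold lower (log2 ratio -1.16, -1.26 to -1.07). Trim5 itself had 108 counts with LPS+LCC-12 and 172 with LPS, a log2 ratio of -0.62 (-0.99 to -0.27). Of the 100-base stretches of Trim5, 11.7% occur in other genes, chiefly Trim12c and Trim12a. Trim6, whose human form builds free ubiquitin chains that activate the kinase IKK-epsilon, had 93 counts with LPS+LCC-12 and 108 with LPS. Its log2 ratio of -0.17 had an interval across 0 (-0.59 to 0.24). Trim12a had 4 counts with LPS+LCC-12 and 0 with LPS. Trim30d, Trim5 and Trim6 were thus within 2-fold in the same cluster.

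**Figure D2:**
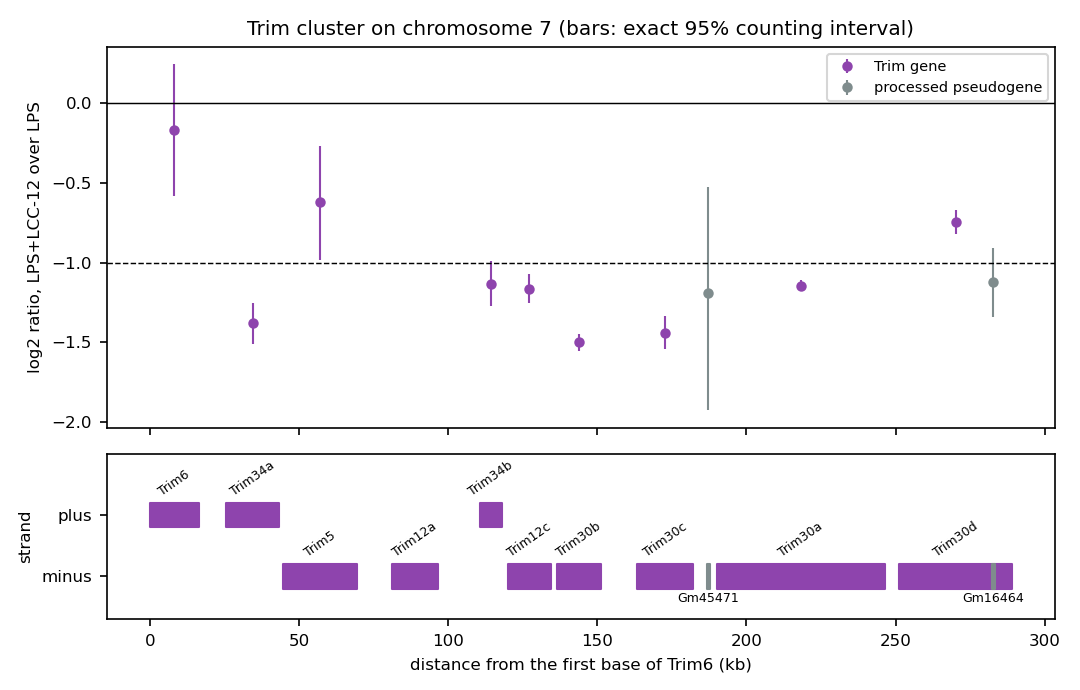
The upper panel gives the log2 ratio (LPS+LCC-12 over LPS, bars for the exact 95% counting interval) of genes with 50 or more counts against distance in kb from the first base of Trim6, and the lower panel draws the genes on both strands. Ratios of the Trim genes run from -1.50 at Trim30b to -0.17 at Trim6, and the dashed line marks 2-fold lower.

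The promoter windows of the cluster are shown because several share a motif known from interferon-induced genes. Windows of 300 bases, from 250 before to 50 after each RefSeq start (GRCm38.p6), were available for 53 of the 68 members. They were searched for the interferon response motif, GAAA, any 2 bases (NN) and GAAA again, on both strands, overlapping matches included. Of the 53 Trim genes, 9 held it, which is 17.0%, against 4.00% of protein-coding genes and 3.99% of all genes with a window. All of the 9 but Trim2, Trim21 and Trim26 lie in the chromosome 7 cluster, where some windows are near copies. The share is thus not one of independent genes. Of the 31 Trim genes with a window and 50 or more counts, 7 held the motif. These were Trim34a, Trim12c, Trim5, Trim30a and Trim30d in the cluster, and Trim21 and Trim26 outside it. Each sequence reads 5′ to 3′ on the strand of its gene, and the capitals mark the motif, which on these 5 appears as its reverse complement.
Trim34a, chr7:104244207-104244506, plus strand: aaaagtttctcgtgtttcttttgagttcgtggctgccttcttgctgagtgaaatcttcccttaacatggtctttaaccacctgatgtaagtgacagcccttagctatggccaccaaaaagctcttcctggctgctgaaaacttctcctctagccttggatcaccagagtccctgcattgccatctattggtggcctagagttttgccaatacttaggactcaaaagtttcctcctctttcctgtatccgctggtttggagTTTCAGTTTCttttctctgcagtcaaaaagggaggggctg
Trim12c, chr7:104353300-104353599, minus strand: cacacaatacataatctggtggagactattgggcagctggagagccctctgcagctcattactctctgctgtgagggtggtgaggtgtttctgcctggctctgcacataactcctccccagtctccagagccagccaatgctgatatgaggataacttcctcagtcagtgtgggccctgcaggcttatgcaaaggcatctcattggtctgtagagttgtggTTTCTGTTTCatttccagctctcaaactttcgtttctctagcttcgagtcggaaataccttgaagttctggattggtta
Trim5, chr7:104288057-104288356, minus strand: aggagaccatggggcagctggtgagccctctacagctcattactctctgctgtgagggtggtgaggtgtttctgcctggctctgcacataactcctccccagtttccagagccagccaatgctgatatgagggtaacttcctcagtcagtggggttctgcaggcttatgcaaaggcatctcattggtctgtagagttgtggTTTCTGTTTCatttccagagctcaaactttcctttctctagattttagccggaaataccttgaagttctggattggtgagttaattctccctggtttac
Trim30a, chr7:104465144-104465443, minus strand: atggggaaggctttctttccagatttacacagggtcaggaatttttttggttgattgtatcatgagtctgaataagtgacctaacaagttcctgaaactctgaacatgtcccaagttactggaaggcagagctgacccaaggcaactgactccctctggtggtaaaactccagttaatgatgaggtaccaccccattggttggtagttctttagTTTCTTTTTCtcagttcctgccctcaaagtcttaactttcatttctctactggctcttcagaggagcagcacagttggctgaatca
Trim30d, chr7:104507800-104508099, minus strand: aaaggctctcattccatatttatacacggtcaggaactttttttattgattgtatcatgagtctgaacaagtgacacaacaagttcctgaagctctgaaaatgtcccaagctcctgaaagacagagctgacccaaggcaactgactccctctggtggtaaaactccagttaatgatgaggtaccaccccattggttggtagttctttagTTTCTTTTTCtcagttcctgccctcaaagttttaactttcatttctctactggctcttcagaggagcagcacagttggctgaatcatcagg

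The motif began 10 bases after the start in Trim34a. It began 29 bases before the start in Trim12c, 49 before it in Trim5, 36 before it in Trim30a and 41 before it in Trim30d. Windows of Trim30a and Trim30d had identical bases at 90.8% of aligned positions, and those of Trim12c and Trim5 at 82.2%. Trim30a had another RefSeq start, further inside the gene, whose window also held the motif. Trim12a and Trim2, both under the count minimum, held it as well. In Trim2 the only match was in the window of a start 94039 bases inside the GENCODE gene.

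The 7 genes with the motif all had log2 ratios below 0, from -1.38 to -0.51, with a median of -0.74. The 24 without it ran from -1.50 to 1.85, with a median of -0.077. Of the members at least 2-fold higher, only Trim47 had a window, so Trim29 and Trim36 are not among the 24. All of the 7 but Trim21 and Trim26 lie in the chromosome 7 cluster, where all 9 counted genes had ratios below 0. Within the cluster, genes with the motif ran from -1.38 to -0.62, and those with a window and no motif from -1.50 to -0.17. The parts of motif and cluster were not tested. Trim30b, Trim30c and Trim34b, all lower, had no match in their windows. The window of Trim30b lies at a RefSeq start 11238 bases inside the GENCODE gene, so it does not show the sequence at the gene's outer start. The same limit holds for Trim47, Trim28 and Trim44, also without a match. Their windows lie at starts 16975, 25038 and 6928 bases inside. A match describes the letters of the window and does not show binding.

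**Figure D3:**
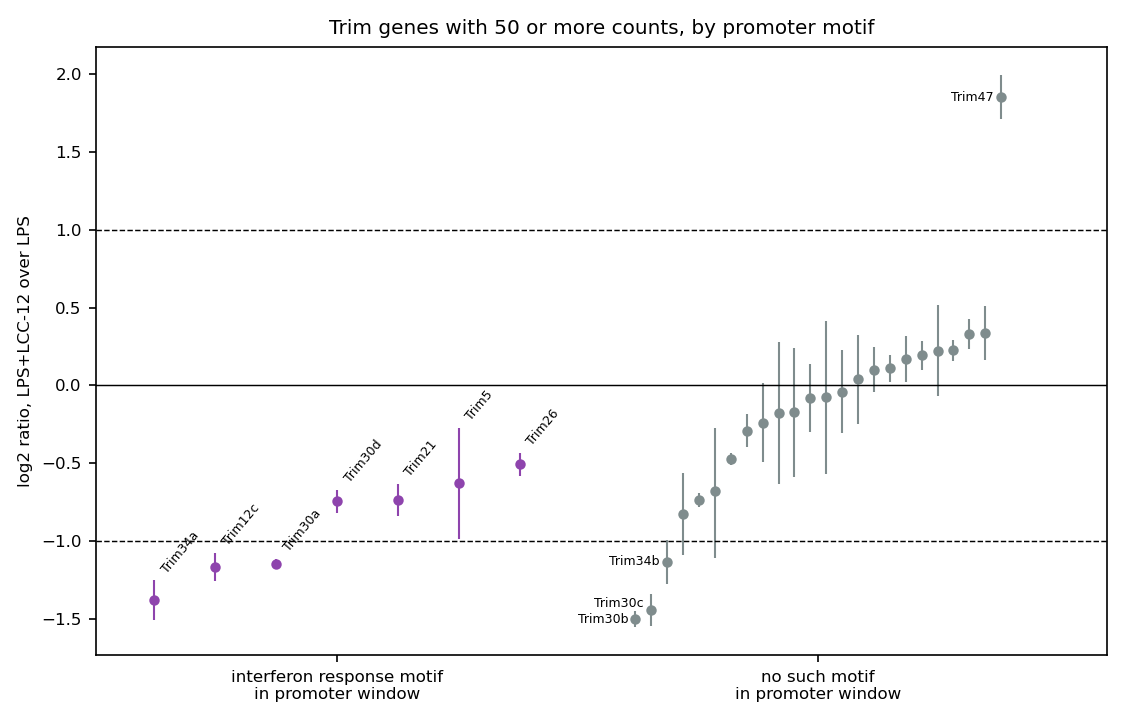
Log2 ratios (LPS+LCC-12 over LPS, bars for the exact 95% counting interval) of the 31 Trim genes with a promoter window and 50 or more counts, with the 7 that hold the interferon response motif on the left and the 24 without it on the right. All 7 lie below 0, and those without the motif lie on both sides. Except for Trim21 and Trim26, the 7 belong to the chromosome 7 cluster.

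Of the 13 members with a role in sensing nucleic acid and antibody, or in the signalling behind it, 10 reached 50 counts. All 10 were within 2-fold, which is close to the share over all protein-coding genes, of which 8.27% were past it. The median of the 10 was -0.33. Counting intervals were below 0 for 6 of them, above 0 for 3 and across 0 for 1. Trim25, the ligase that ubiquitinates the RNA sensor RIG-I, had 10163 counts with LPS+LCC-12 and 14558 with LPS, a log2 ratio of -0.47 (-0.51 to -0.44). Trim56, known to act in STING and cGAS signalling, had 6195 counts with LPS+LCC-12 and 10634 with LPS, a log2 ratio of -0.73 (-0.78 to -0.69). Trim21, a cytosolic antibody receptor, had 1220 counts with LPS+LCC-12 and 2096 with LPS, and the same log2 ratio of -0.73 (-0.84 to -0.63). Trim13, anchored in the endoplasmic reticulum, was nearest to the 2-fold limit from inside, at -0.82 (-1.09 to -0.56), with 187 counts with LPS+LCC-12 and 342 with LPS. Just past that limit was Trim34b at -1.13.

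Trim26, which in its human form targets IRF3 in the nucleus, had 2466 counts with LPS+LCC-12 and 3617 with LPS, a log2 ratio of -0.51 (-0.58 to -0.43). Trim14, which joins the adaptor MAVS at mitochondria, had 1910 counts with LPS+LCC-12 and 2240 with LPS, a log2 ratio of -0.18 (-0.27 to -0.10). Of the exon bases of Trim14, 31.3% lie opposite exons of Nans, which had 3488 and 2577 counts with LPS+LCC-12 and LPS. Reads of these genes cannot be told apart unless the counting used strand. The windows of Trim21 and Trim26 held overlapping matches of the motif, in capitals here, forward in Trim21 and as the reverse complement in Trim26.
Trim21, chr7:102565433-102565732, minus strand: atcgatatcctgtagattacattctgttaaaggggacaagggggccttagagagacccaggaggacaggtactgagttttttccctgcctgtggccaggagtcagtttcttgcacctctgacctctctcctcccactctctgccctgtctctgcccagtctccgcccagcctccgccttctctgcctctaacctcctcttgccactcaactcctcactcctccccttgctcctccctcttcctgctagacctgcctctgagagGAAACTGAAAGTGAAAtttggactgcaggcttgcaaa
Trim26, chr17:36836896-36837195, plus strand: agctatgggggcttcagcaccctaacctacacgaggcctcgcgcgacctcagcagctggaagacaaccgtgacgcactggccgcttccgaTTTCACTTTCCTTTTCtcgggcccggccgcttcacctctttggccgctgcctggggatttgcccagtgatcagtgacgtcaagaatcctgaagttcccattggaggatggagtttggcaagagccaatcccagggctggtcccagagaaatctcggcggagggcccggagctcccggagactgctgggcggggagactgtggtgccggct

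In Trim21 the matches began 13 and 19 bases after the start, and in Trim26 160 and 154 bases before it. Trim25 and Trim56, with ratios of like size, had no match in their windows.

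A smaller group in this role lay on the other side of 0. Trim8, which promotes NF-kB signalling through the kinase TAK1, had 16127 counts with LPS+LCC-12 and 12084 with LPS, a log2 ratio of 0.46 (0.43 to 0.50). Trim65, the ligase of the RNA sensor MDA5, had 1398 counts with LPS+LCC-12 and 889 with LPS, a log2 ratio of 0.70 (0.58 to 0.82). Trim23, which also has an ARF-type GTPase domain, had 612 counts with LPS+LCC-12 and 501 with LPS, a log2 ratio of 0.33 (0.16 to 0.51). Trim62, a ligase of the adaptor CARD9, had 209 and 185 counts with LPS+LCC-12 and LPS, and an interval across 0. Trim69 stayed under the count minimum, with 7 counts with LPS+LCC-12 and 45 with LPS (log2 ratio -2.56, -4.03 to -1.48). Trim31, another member acting on MAVS, had 0 and 3 counts with LPS+LCC-12 and LPS, and Trim38 had 0 in both.

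**Figure D4:**
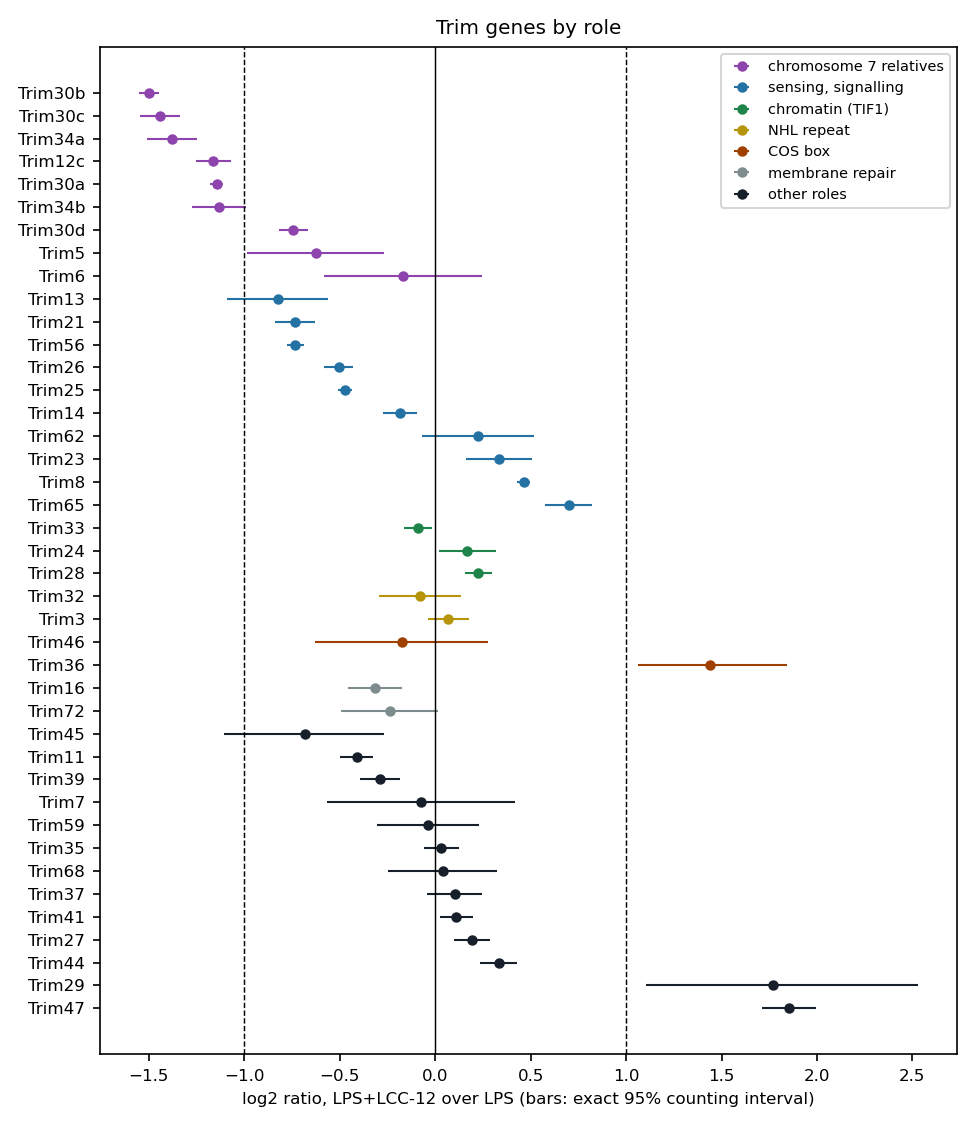
Log2 ratios (LPS+LCC-12 over LPS) of the 41 Trim genes with 50 or more counts, coloured by role, with bars for the exact 95% counting interval and dashed lines at 2-fold. The chromosome 7 relatives hold all 6 genes at least 2-fold lower, and Trim36, Trim29 and Trim47 lie at least 2-fold higher, at 1.44, 1.77 and 1.85.

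The 3 higher members share no role in the lists used here. Trim47 had 1833 counts with LPS+LCC-12 and 524 with LPS, 3.61-fold higher (log2 ratio 1.85, 1.71 to 2.00). The GENCODE gene Trim47 overlaps its neighbour Trim65 on chromosome 11, on the same strand, by 225 exon bases, which are 8.23% of the exon bases of Trim47 and 3.82% of those of Trim65. Trim65 was 1.62-fold higher. Trim36, a microtubule-binding ligase on chromosome 18, had 206 counts with LPS+LCC-12 and 78 with LPS, 2.72-fold higher (log2 ratio 1.44, 1.06 to 1.84). Trim29, which lacks a RING finger and in mouse alveolar macrophages is known to act on NEMO, a subunit of the NF-kB kinase complex, had 77 counts with LPS+LCC-12 and 23 with LPS. It was 3.40-fold higher (log2 ratio 1.77, 1.10 to 2.53). All 3 intervals stayed above 2-fold.

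Members that work on chromatin were close to 0. Trim28, the corepressor recruited by KRAB zinc finger proteins, had 3588 counts with LPS+LCC-12 and 3169 with LPS, a log2 ratio of 0.23 (0.16 to 0.29). Its relatives Trim24 and Trim33 had log2 ratios of 0.17 (0.02 to 0.32) and -0.09 (-0.17 to -0.02). Trim66 had 6 counts with LPS+LCC-12 and 3 with LPS. Among 7 partners of Trim28 none passed 2-fold, near the share over all protein-coding genes, of which 8.27% did. The median of the 7 was 0.21. The heterochromatin protein genes Cbx5 and Cbx3 had log2 ratios of 0.53 and 0.43, whereas Cbx1 and the histone methyltransferase gene Setdb1 had -0.23 and -0.20.

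Members with NHL repeats, a domain that binds RNA and protein, included Trim3 and Trim32, with log2 ratios of 0.07 (-0.04 to 0.17) and -0.08 (-0.30 to 0.14). Trim2 had 46 counts with LPS+LCC-12 and 36 with LPS, and Trim71 had 0 in both. Of the genes with a role at damaged membranes, Trim16, which acts with galectin-3 on broken lysosomes, had a log2 ratio of -0.32 (-0.46 to -0.17). Trim72, known from membrane repair in muscle, had -0.24 (-0.49 to 0.01). Part of Trim72, 27.6% of its exon bases, lies opposite the antisense gene Gm15533, with 1 count with LPS+LCC-12 and 21 with LPS.

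Of the remaining members past the count minimum, Trim45, Trim11 and Trim39 had intervals below 0, at -0.68 (-1.11 to -0.27), -0.41 (-0.50 to -0.33) and -0.29 (-0.40 to -0.18). Trim44, Trim27 and Trim41 had intervals above 0, at 0.33 (0.24 to 0.43), 0.19 (0.10 to 0.29) and 0.11 (0.02 to 0.20). Trim44 has a ubiquitin-binding zinc finger in place of the RING finger, and Trim27 acts with the retromer in endosome sorting. Trim35, Trim37, Trim59, Trim68, Trim7 and Trim46 had intervals across 0. By the C-terminal domain, all 6 lower genes were among the 27 counted members with a SPRY domain, the fold that reads capsids and other targets. That set had a median of -0.29, with 2 higher, namely Trim47 and Trim36. It holds all 9 counted chromosome 7 relatives, so its lower genes are those of the cluster and no separate result.

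Levels were compared between members per length, as TMM-scaled CPM per kilobase of exon. With LPS+LCC-12 the highest level was that of Trim8, at 89.9, before Trim30a at 52.6, Trim25 at 36.5 and Trim28 at 17.8. With LPS the highest was Trim30a, at 116, before Trim8 at 65.2, Trim25 at 50.7 and Trim30c at 33.9. Trim47 ranked 5 of 41 with LPS+LCC-12, at 13.9, and 25 of 41 with LPS, at 3.84. Trim30b ranked 10 with LPS+LCC-12 and 5 with LPS, at levels of 11.2 and 31.8. In both libraries 33 members had a level of 1 or more. With 1 library each, neighbours in these orders have no spread to be compared with.

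Of the 27 members under the count minimum, 13 had 0 counts in both libraries, which allows up to 0.0629 CPM of the unscaled total with LPS+LCC-12 and 0.0593 with LPS. They include Trim10, known from red cell precursors, Trim54 of muscle, and Trim40 and Trim50. Another 11 had at most 13 counts in either library. Among these, the muscle gene Trim55 had 0 and 8 counts with LPS+LCC-12 and LPS, the neural gene Trim67 0 and 6, and Trim43b 0 and 5. Trim9, also known from neurons, had 20 counts with LPS+LCC-12 and 49 with LPS.

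Proteins of the tripartite motif class that carry other names were read beside the Trim genes. Mefv, which encodes pyrin, had 5016 counts with LPS+LCC-12 and 10646 with LPS, 2.06-fold lower (log2 ratio -1.04, -1.09 to -0.99). Pml, the scaffold of nuclear bodies, had 4478 counts with LPS+LCC-12 and 5708 with LPS, a log2 ratio of -0.30 (-0.36 to -0.25). The microtubule-binding Mid1 had 0.21 (0.03 to 0.39), and Mid2 had 6 and 11 counts with LPS+LCC-12 and LPS.

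Among 29 sensors and signalling genes that these proteins act on, 3, or 10.3%, were lower and 0 higher. Over all protein-coding genes past the count minimum, 4.46% were lower and 3.81% higher. The median of the 29 was -0.27. Ddx58, which encodes RIG-I, had 4215 counts with LPS+LCC-12 and 11513 with LPS (log2 ratio -1.40, -1.45 to -1.35). Ifih1, which encodes MDA5, was 2.32-fold lower, and Irf7, the interferon-inducible regulator of interferon genes, 2.23-fold. The ligase of RIG-I, Trim25, had a log2 ratio of -0.47, and that of MDA5, Trim65, had 0.70. The adaptor Mavs had a log2 ratio of 0.22 (0.08 to 0.36), the DNA sensor Cgas -0.27 (-0.40 to -0.14) and Tmem173, which encodes STING, -0.07 (-0.25 to 0.10). The adaptor genes Tab2 and Tab3, whose products Trim30a acts on, had -0.04 (-0.09 to 0.01) and -0.57 (-0.71 to -0.43).

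Of 19 genes of the ubiquitin and ISG15 machinery, 3 were lower (15.8%, against 4.46% of all protein-coding genes) and 0 higher (against 3.81%). The median of the 19 was -0.0094. The 3 lower genes belong to ISG15, an interferon-induced ubiquitin-like protein. Usp18, which removes ISG15, was 4.70-fold lower, Isg15 itself 3.48-fold, and Herc6, its ligase in mouse, 2.75-fold. Uba7 and Ube2l6, the activating and conjugating enzymes of ISG15, were within 2-fold. The activating enzyme of ubiquitin, Uba1, had 0.10 (0.06 to 0.13), and the conjugating enzymes Ube2n and Ube2d3, partners of many RING ligases, had -0.08 and -0.10.

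Other families were set side by side with the Trim genes under the same limits, and with 1 library per group the differences between families were not tested. Over all protein-coding genes past the count minimum, 4.46% were lower and 3.81% higher. Among the 62 of 85 RING finger genes named Rnf that could be read, 1 (1.61%) was lower and 2 (3.23%) were higher. The Rnf median was -0.07. All 6 Ifit genes were lower, with a median of -2.89. Of the Slfn genes 5 of 7 were lower, with a median of -1.44, and of the Gbp genes 4 of 10, with a median of -0.76. In a list of 22 interferon-stimulated effector genes, which holds 3 of the Ifit genes, 15 were lower and 0 higher, with a median of -1.27. The ratios of the chromosome 7 relatives, -1.50 to -0.17, overlapped the range of the Slfn genes, -2.00 to -0.35, and that of the Gbp genes, -2.04 to 0.14. They did not overlap that of the Ifit genes, which ended at -2.23. Neutrophil markers, 8 of 11 lower, ran from -2.31 to -0.12, and their part in the Trim ratios was not tested.

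**Figure D5:**
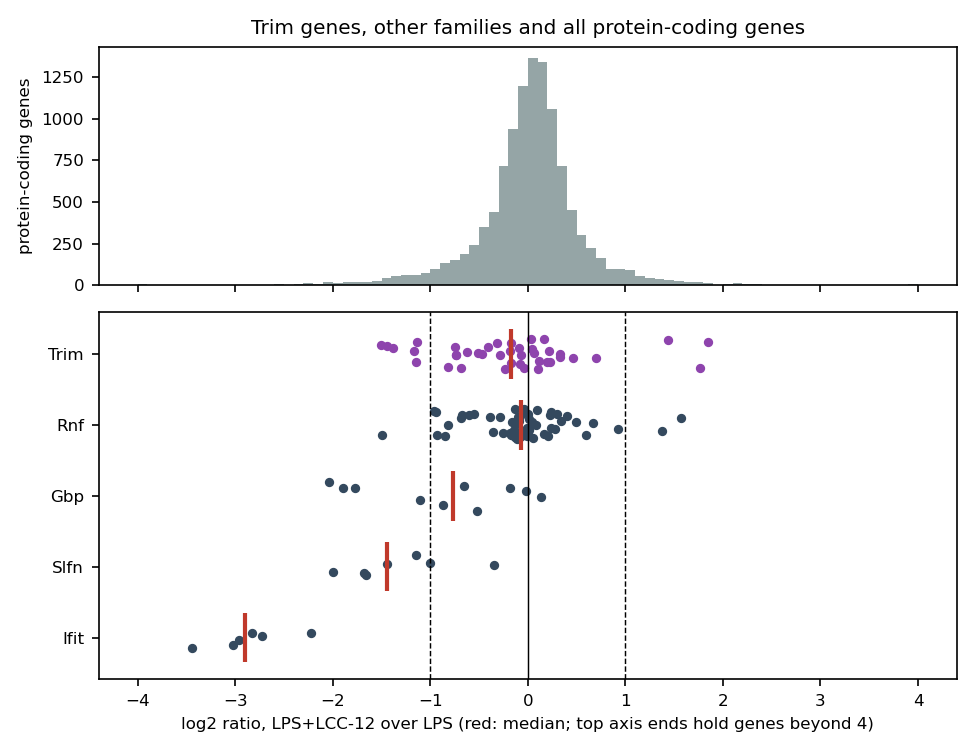
The upper panel counts protein-coding genes with 50 or more counts by log2 ratio (LPS+LCC-12 over LPS), and the lower panel gives each gene of the Trim, Rnf, Gbp, Slfn and Ifit families, with the median as a red line. The Trim genes spread from -1.50 to 1.85 around a median of -0.17, between the Rnf genes at -0.07 and the Gbp genes at -0.76.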

How the data were processed

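The deposited table gives raw, unnormalized whole-number counts for each gene in 2 libraries. The submitters' processing notes name STAR and mm10. How reads were counted, with which annotation and whether by strand, is not given in the sources used here. Per the labels' extraction protocol, stranded libraries were made from 10 ng of total RNA with ribosomal depletion and 12 PCR cycles, so counts are not independent molecules. The molecule field of the labels instead names polyA RNA, and which of these the counts measure was not settled here. SWISS mice differ from the reference strain.

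Library codes in the labels link each column to its group. GENCODE M21 gave symbols, coordinates and exon lengths for 55394 of 55487 IDs. Scaling used edgeR 4.0.16 (TMM) in R 4.3.3, with a mean of 0.5 added counts. Intervals are Clopper-Pearson bounds (scipy 1.17.1). A floor of 3 counts was used only for the CPM limit of members with 0 counts in both libraries. In ratios and intervals a count of 0 was kept as 0. Shared stretches are 100-base words of GENCODE transcripts. Promoter windows are from RefSeq (GRCm38.p6). The ratios were tested on simulated data.

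The named genes were Trim genes, in full where past 2-fold or in a role linked to interferon, and up to 4 genes past 2-fold in each pathway list, plus 8 set by name, of which 1 is not reported here. Adgre1, Fn1, Mid2, Tab2, Tab3, Setdb1, the Cbx genes, Uba1, Uba7, Ube2l6, Ube2n and Ube2d3 were named after their values were seen. So were genes that overlap members or lie in their cluster. The members and lists were chosen with earlier results of these data known. Alternatives were other scalings (DESeq2 1.42.0 among them), count minimums, added counts and fold limits.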

Additional observations from a re-analysis of the deposited data

How the results depend on the processing

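Across scaling by total counts, DESeq2 median of ratios and the upper quartile, the Trim genes kept 6 lower and 3 higher, and the median ran from -0.20 to -0.13, beside 0.01 to 0.09 for all protein-coding genes. Without a count minimum (1 count), 12 were lower and 7 higher among the 55 members with any count. With a limit of 1.5-fold, 12 of 41 were lower and 4 higher. With the whole interval beyond 2-fold, 5 of 41 were lower and 3 higher. Shares of all protein-coding genes were not computed at these limits, so these counts cannot be read against them. With a minimum of 200 counts, or without the 22 members that share exon bases with another gene, the median was -0.09. Over 4 alternatives (3 scalings and 5 added counts), 0 of 41 members crossed the 2-fold limit and 1, Trim35, changed sign near 0. For 3 members, Trim30a, Trim25 and Trim8, the ratio under another scaling fell outside the counting interval. The intervals given are those of TMM scaling and do not cover the choice of scaling, which matters for intervals that end near 0. Changing the scaling of pathway lists and families and using the first listed promoter window, both chosen after seeing the data, moved no count by over 1.5 times. No paired analysis was possible because each group is 1 library. Depth limits members under 50 counts, and no value measures variation between pools of mice.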

Other observations

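The chromosome 7 cluster also holds 2 processed pseudogenes with 50 or more counts. Gm16464, inside Trim30d, had 256 counts with LPS+LCC-12 and 575 with LPS, a log2 ratio of -1.12 (-1.34 to -0.91). Gm45471, between Trim30c and Trim30a, had 26 counts with LPS+LCC-12 and 62 with LPS, a log2 ratio of -1.19 (-1.93 to -0.53). Whether these reads come from the pseudogenes or from the Trim30 genes around them was not tested.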
